A study of Mus musculus with 6 samples.

Results

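A set of 9 genes of antioxidant defence and of the pentose phosphate pathway was followed in the mouse melanoma line B16.F10 after simvastatin treatment. They are well-known targets of the transcription factor NRF2 or enzymes of that pathway, and were chosen by name, with earlier results of these data known. All transcripts of Srxn1, Prdx1, Txnrd1, Gclc, Gclm, G6pdx, Pgls, Pgd and Taldo1 were taken, which gave 9 of the 8513 genes and 17 of the 15905 transcripts in the authors' deposited table. The simvastatin group held 3 samples of wild-type B16.F10 cells given 3.5 µM simvastatin, a statin that blocks mevalonate synthesis, for 24 h. The control group held 3 samples of the same line labelled as having had no treatment. No vehicle was named for it, and all 6 samples carried the same batch label. The labels' protocols gave the dose as the IC50 of the drug in these cells. RNA was made into strand-specific libraries and sequenced.

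NRF2 is a transcription factor that its inhibitor KEAP1 marks for degradation and that accumulates when oxidants or electrophiles modify KEAP1. With small MAF proteins it binds antioxidant response elements upstream of genes for glutathione synthesis, the thioredoxin system and NADPH supply. Glutathione and thioredoxin reduce peroxides and oxidised proteins, and both are recharged with electrons from NADPH, much of which comes from the oxidative steps of the pentose phosphate pathway. In melanoma cells, pigment synthesis is a further source of oxidants.

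The authors' deposited table gave 1 value for each group and transcript; its unit is not stated there. No value per sample was used, so no spread between replicates, no SD and no depth can be stated. The p-values were the authors' own, from a test that is not stated. Levels were compared between groups, and between genes only to choose which list genes to name. In such bulk RNA, fewer cells of a type and less RNA per cell cannot be told apart. All 9 melanocyte lineage markers looked for were present, and 8 of them had summed log2 ratios above 0, with a median of 0.28, close to the median of 0.31 of the genes described here. Of these markers the melanosome gene Gpnmb rose 1.75-fold (adjusted p = 0.042, authors' deposited table) and Gpr143 was called higher by the authors, and their part in the values below was not tested. Of 17 markers of fibroblasts, immune cells, keratinocytes and endothelial cells 1 was present, Cd68, at 0.93 with simvastatin and 0.37 in control in the authors' deposited table. Over all transcripts the values summed to 344210 with simvastatin and 394749 in control. Dividing each group by its sum would add 0.20 to every log2 ratio below and would move the median log2 ratio of all genes to 0.22.

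Srxn1 and G6pdx rose with simvastatin, the first by 2.03-fold and the second by 1.5-fold in its main transcript, and no transcript of the 9 genes fell. Pgd, for the other NADPH-making enzyme of the pathway, stood just outside the threshold. The glutathione synthesis genes Gclc and Gclm had higher group values with simvastatin but missed the threshold, and the summed values of Prdx1 and Taldo1 were close to those in control. Txnrd1 was the gene whose value was lower with simvastatin in all its transcripts, also without passing. At an adjusted p under 0.05 in the authors' deposited table, 2 of 17 transcripts (11.8%) were higher with simvastatin, where 1.11% of all transcripts were. None of the 17 was lower at that threshold, where 0.987% of all transcripts were, and at an unadjusted p under 0.05, 5 were higher and 2 lower, where 9.42% and 10.2% of all transcripts were. Counted by gene, 2 of the 9 had a higher transcript, beside 2.03% of all genes. By the call of the authors, whose called transcripts had adjusted p-values up to 0.2 and folds from 1.5, the table marked 4 of the 17 transcripts in 3 genes as higher and none as lower, beside 5.13% and 4.37% of all transcripts. Given how the genes were chosen, these counts are a description.

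**Figure D1:**
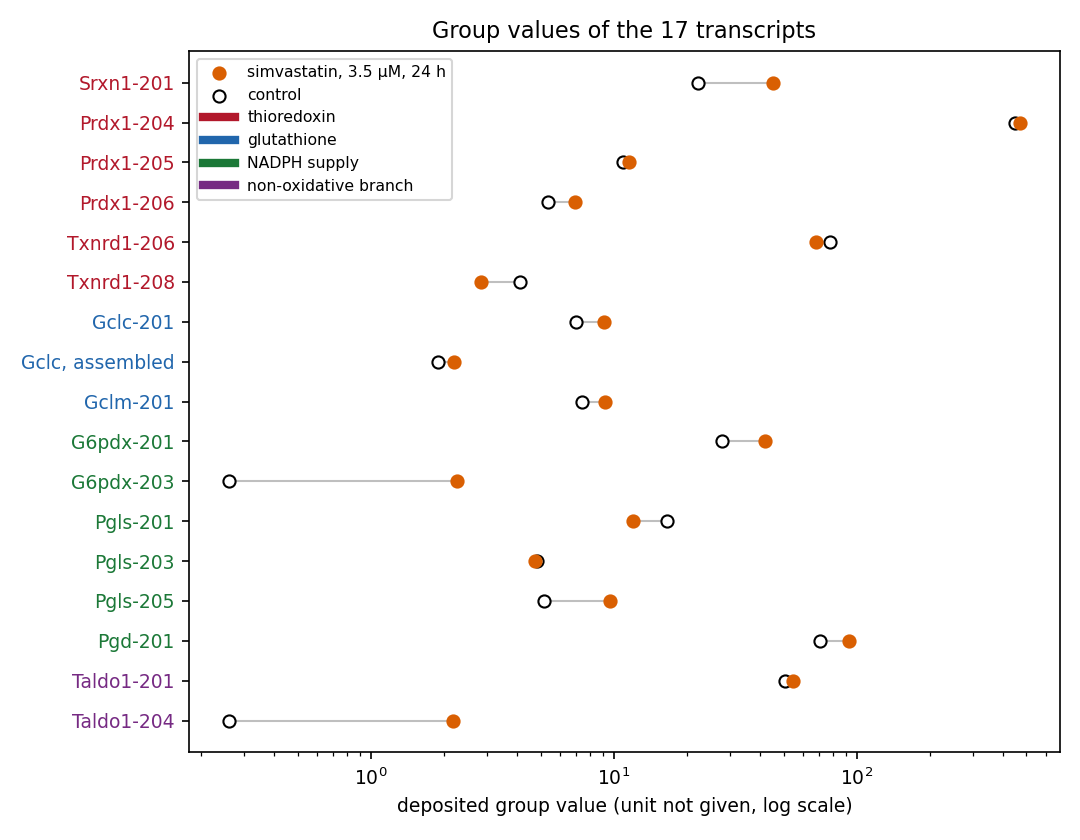
Group values of the 17 transcripts in the authors' deposited table, on a logarithmic axis in an unstated unit, with simvastatin as filled and control as open circles, 1 value per group. Srxn1-201 and G6pdx-201 lie to the right of their control values, both Txnrd1 transcripts lie to the left, and the 2 widest gaps, of G6pdx-203 and Taldo1-204, start from a control value of 0.26.

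Of the genes of the thioredoxin system, Srxn1 encodes sulfiredoxin, which repairs peroxiredoxins that hydrogen peroxide has over-oxidised. Its 1 transcript, Srxn1-201 (ENSMUST00000041500, chr2:152105524-152111376, plus strand, GRCm38, 2 exons), had a value of 45.25 with simvastatin and 22.25 in control in the authors' deposited table. It rose 2.03-fold, with a p of 0.001 and an adjusted p of 0.044 by the authors' test over all transcripts in their deposited table. Its log2 ratio of 1.02 was exceeded by 5.02% of all genes when transcripts were summed per gene. No other of the 9 genes had as large a summed ratio.

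Prdx1 encodes peroxiredoxin 1, an abundant peroxidase and a substrate of sulfiredoxin. Prdx1-204 (ENSMUST00000135573, chr4:116685544-116700822, plus strand) had 471 with simvastatin and 448 in control in the authors' deposited table (1.05-fold, adjusted p = 0.804). The shorter Prdx1-205 and the retained-intron transcript Prdx1-206 had 11.6 and 6.92 with simvastatin and 10.9 and 5.35 in control in the authors' deposited table, with adjusted p-values of 0.803 and 0.503. The repair enzyme and its substrate therefore differed in call: Srxn1 passed and no transcript of Prdx1 did, and the difference between them was not tested.

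Txnrd1 encodes the cytosolic thioredoxin reductase, the selenoenzyme that passes electrons from NADPH to thioredoxin. Txnrd1-206 (ENSMUST00000219442, chr10:82860301-82897710, plus strand) had 68.2 with simvastatin and 77.3 in control in the authors' deposited table (p = 0.03, adjusted p = 0.196). Txnrd1-208, which starts further upstream, had 2.83 with simvastatin and 4.12 in control in the authors' deposited table (p = 0.046, adjusted p = 0.25). Both transcripts were lower with simvastatin and neither passed after adjustment. The summed log2 ratio of -0.20 became 3.1e-05 when each group was divided by its sum, so the direction of Txnrd1 depended on that scaling. The long noncoding RNA gene Gm38560 overlaps Txnrd1 on the opposite strand and stood at 4.92 with simvastatin and 6.65 in control in the authors' deposited table. Whether the counting used strand is not stated, and without it the reads of the pair cannot be told apart.

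The pair of glutathione synthesis genes encodes both subunits of glutamate cysteine ligase, the rate-limiting enzyme: Gclc the catalytic and Gclm the modifier subunit. Gclc-201 (ENSMUST00000034905, chr9:77754535-77794485, plus strand) had 9.11 with simvastatin and 7.01 in control in the authors' deposited table (1.30-fold, adjusted p = 0.596). A second Gclc transcript that the authors had assembled from reads had 2.19 with simvastatin and 1.89 in control in the authors' deposited table (their adjusted p = 0.806). Gclm-201 (ENSMUST00000029769, chr3:122245557-122270732, plus strand) had 9.16 with simvastatin and 7.38 in control in the authors' deposited table (1.24-fold, p = 0.054, adjusted p = 0.27). The ratios of both subunits lay close together, with summed log2 ratios of 0.34 for Gclc and 0.31 for Gclm, and neither passed. Gclm overlaps the pseudogene Gm6061 on its own strand, which had 89.2 with simvastatin and 138 in control in the authors' deposited table, and Gm17494 on the opposite strand, at 2.03 with simvastatin and 3.46 in control. Both overlapping genes had lower values with simvastatin, unlike Gclm, and their part in the value of Gclm was not tested.

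G6pdx encodes glucose-6-phosphate dehydrogenase, which takes the first, NADPH-making step of the pentose phosphate pathway. G6pdx-201 (ENSMUST00000004327, chrX:74409483-74429194, minus strand, 13 exons) had 41.9 with simvastatin and 27.9 in control in the authors' deposited table. It rose 1.5-fold, with a p printed as 0 to 3 decimals and an adjusted p of 0.038 in the authors' deposited table. This was the smallest adjusted p of the 17 transcripts. G6pdx-203 (ENSMUST00000143521, 10 exons), an annotated model with an open end, had 2.27 with simvastatin and 0.26 in control in the authors' deposited table (8.66-fold, adjusted p = 0.056). Its share of the summed G6pdx value was 5.14% with simvastatin and 0.922% in control. The authors called both transcripts higher, and G6pdx-201 held nearly all of the gene's value in each group. Ikbkg, which starts next to G6pdx and overlaps it on the opposite strand, had 0.98 with simvastatin and 1.77 in control in the authors' deposited table. The mouse also has G6pd2, a retrocopy of G6pdx that was not analysed here, and how reads matching both were assigned is not stated.

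The annotated difference between the 2 G6pdx transcripts inside their shared part is 3 bases. Exon 6 of G6pdx-203 begins 3 bases earlier than that of G6pdx-201, and the reading frame is kept. The sequences show 12 bases on each side of the junction of exons 5 and 6 in the GENCODE M21 transcripts (GRCm38, minus strand, exon 5 at chrX:74413864-74414081, exon 6 from 74412480 or 74412477 downwards), with the extra bases in capitals.
G6pdx-203: catgagtcagacCAGaggctggaaccg
G6pdx-201: catgagtcagacaggctggaaccg
The first exon of G6pdx-203 also starts 318 bases after that of G6pdx-201, and its model ends before the last exons. Short reads that cover none of these places fit both models, and how the authors' tools divided them is not stated.

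Pgls encodes 6-phosphogluconolactonase, the second step of the pathway. Its summed value was 26.3 with simvastatin and 26.6 in control, but the transcripts behind the sum stood the opposite way. Pgls-201 (ENSMUST00000034264, chr8:71592176-71596269, plus strand) had 11.96 with simvastatin and 16.6 in control in the authors' deposited table (their adjusted p = 0.71), which was 45.4% of the gene's value with simvastatin and 62.4% in control. Pgls-205 had 9.66 with simvastatin and 5.15 in control in the authors' deposited table (1.87-fold, p = 0.03, adjusted p = 0.197), or 36.7% of the gene's value with simvastatin and 19.4% in control. The authors called Pgls-205 higher, although it did not pass at 0.05. Pgls-203, annotated for nonsense-mediated decay, had 4.72 with simvastatin and 4.83 in control in the authors' deposited table (their adjusted p = 0.522). Pgls-201 and Pgls-205 share 4 exons in full and differ in the first, which in Pgls-205 starts 115 bases and ends 284 bases further downstream. Their split therefore rests on reads that touch that exon, and the way the other reads were divided is not stated.

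**Figure D2:**
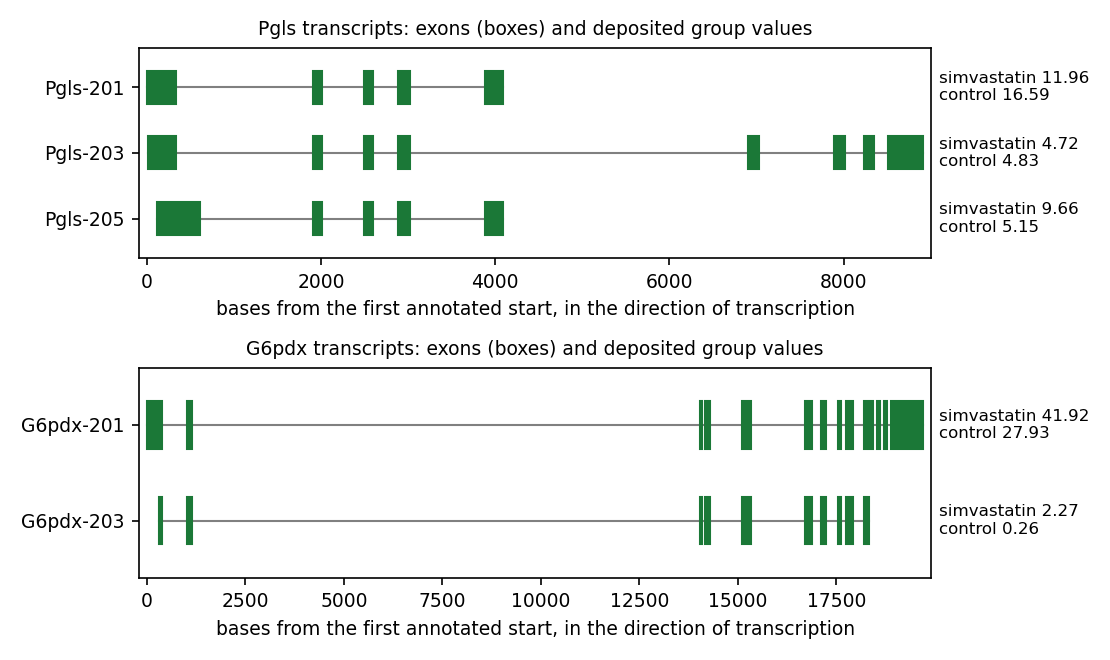
Exons (boxes) of the Pgls and G6pdx transcripts from GENCODE M21, drawn to scale in bases from the first annotated start in the direction of transcription, with the deposited group values at the right. Pgls-205 (9.66 with simvastatin, 5.15 in control) differs from Pgls-201 in its first exon, and G6pdx-203 lacks the last exons of G6pdx-201.

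Pgd encodes 6-phosphogluconate dehydrogenase, which makes the second NADPH of the pathway. Pgd-201 (ENSMUST00000084124, chr4:149149991-149166707, minus strand) had 93.3 with simvastatin and 70.9 in control in the authors' deposited table. Its fold of 1.32 had a p of 0.002 and an adjusted p of 0.057 in the authors' deposited table, so Pgd lay just outside the threshold. Its fold was under the 1.5 that every called transcript reached. Taldo1 encodes transaldolase, which returns pentose phosphates to glycolysis in the non-oxidative branch and makes no NADPH. Taldo1-201 (ENSMUST00000026576, chr7:141392199-141402968, plus strand) had 54.8 with simvastatin and 50.9 in control in the authors' deposited table (1.08-fold, adjusted p = 0.672). The minor Taldo1-204 had 2.18 with simvastatin and 0.26 in control in the authors' deposited table (their adjusted p = 0.748), the other wide ratio that started from a low control value.

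Set side by side by function, summed over transcripts, the NADPH supply genes G6pdx, Pgls and Pgd had log2 ratios of 0.65, -0.01 and 0.40, with a median of 0.40. The glutathione pair had a median of 0.33. The thioredoxin genes Srxn1, Prdx1 and Txnrd1 had 1.02, 0.08 and -0.20, with a median of 0.08, and so were the most spread of the groups. Taldo1 had 0.16. Over all 9 genes the median was 0.31, with 7 of 9 (77.8%) above 0, while over the 8505 genes with a value in both groups it was 0.02 with 51.7% above 0. These groups of 2 or 3 genes were not tested against each other or against all genes. Dividing by the sums raised all of these ratios alike and turned Pgls to 0.19.

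**Figure D3:**
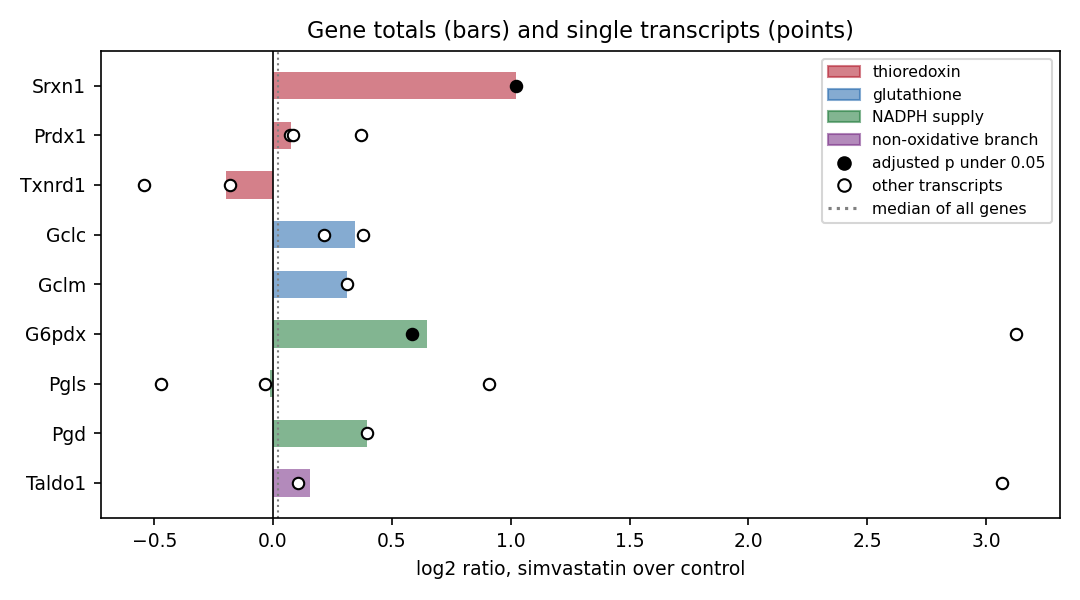
The log2 ratio of simvastatin over control for each gene summed over its transcripts (bars, coloured by function) and for each transcript (points, filled at an adjusted p under 0.05), with the median of all genes (0.02) as a dotted line. Srxn1 has the longest bar (1.02), Txnrd1 the only clear bar below 0 (-0.20), and the points of Pgls lie on both sides of its bar.

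**Figure D4:**
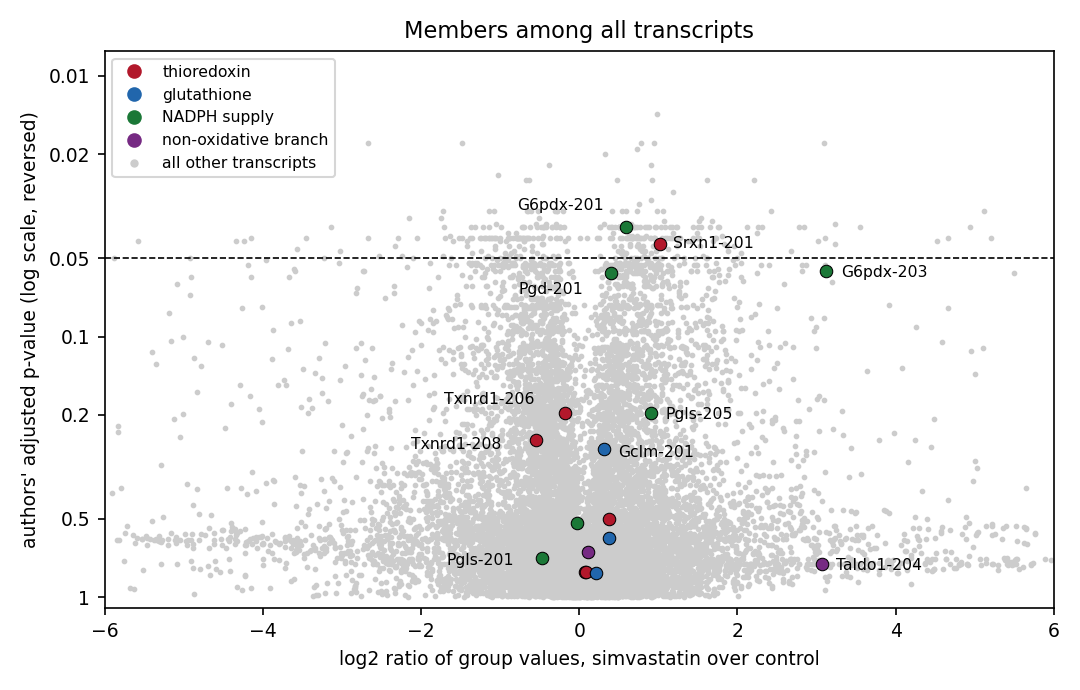
All transcripts with a value above 0 in both groups (grey), by log2 ratio of simvastatin over control and by the authors' adjusted p-value on a reversed logarithmic axis, with the 17 transcripts of the 9 genes coloured by function and the dashed line at 0.05. G6pdx-201 (0.038) and Srxn1-201 (0.044) lie above the line and G6pdx-203 (0.056) and Pgd-201 (0.057) just below it, and 187 transcripts beyond a log2 ratio of 6 either way are not drawn.

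The DNA upstream of these genes was searched for the core of the antioxidant response element, TGANNNNGC on either strand, in RefSeq promoter windows of GRCm38.p6 that hold 250 bases before and 50 after a start. The windows covered 8 of the 9 genes, Gclc being the other. A match is a description of letters and not of binding, and 41.3% of all 32851 windows held one. Of the 11 windows of these genes 8 held a match. Counted by gene, 7 of the 8 with a window had a match in any window, beside 45.0% of all 27025 genes with windows. Srxn1, the member with the largest summed ratio, had 4 matches, 3 of them before the first annotated exon of the gene and 1 starting 28 bases after the start of Srxn1-201. The sequence upstream of it is shown for that reason (chr2:152105274-152105515, plus strand), with the matches in capitals.
Srxn1: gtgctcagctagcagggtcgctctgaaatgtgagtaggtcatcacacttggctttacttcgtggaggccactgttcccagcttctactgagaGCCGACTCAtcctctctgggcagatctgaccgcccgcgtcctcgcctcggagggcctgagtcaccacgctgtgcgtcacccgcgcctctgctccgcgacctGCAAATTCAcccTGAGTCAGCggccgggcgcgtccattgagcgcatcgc
The third of these matches, 45 bases before the start, also has the narrower form TGANTCAGC. That form was chosen after the match was seen, overlaps the core by definition and was found in 1.19% of all windows. Prdx1 was the other gene that held it, on the minus strand and 133 bases before the start used for its window, which is that of Prdx1-205. The start of Prdx1-204 lies between the match and that start.

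For comparison, the matches before the start of Prdx1 (chr4:116685458-116685482), Gclm (chr3:122245415-122245439), Taldo1 (chr7:141391931-141391955) and 2 of the 3 windows of Txnrd1 (chr10:82859106-82859130 and chr10:82860249-82860273) are given on the plus strand, and that of G6pdx (chrX:74428921-74428945) on the minus strand, each within 25 bases of RefSeq sequence.
Prdx1: gggaaagcGCTGAGTCAtcccccgt
Gclm: tcccgggcGCACCGTCAactctcac
Taldo1: aggcttacTGAGCGCGCgtctcagt
Txnrd1, window at Txnrd1-208: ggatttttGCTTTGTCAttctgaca
Txnrd1, window at Txnrd1-206: ttttgcccGCGGTTTCAgattccag
G6pdx: gcgggtcaGCTCAGTCAaagcacac
The G6pdx window lies downstream of the start of G6pdx-201 and inside its first exon. Srxn1, which rose, Prdx1, at 1.05-fold over its summed transcripts, and Txnrd1, with lower values, all held the core letters, so holding them did not separate the genes that passed from those that did not. The window of Pgls, the most upstream window of Txnrd1 and the window at the start of Pgd-201 held no match, and the other window of Pgd held one just after its start.

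The rest of these pathways was read through lists of 126 genes, of which 92 were in the authors' deposited table. At an adjusted p under 0.05 there, 1 of the 92 genes rose and 1 fell, beside 2.03% and 1.81% of all genes, and the authors' call marked 10 as higher and 3 as lower, beside 8.58% and 7.52%. The median summed log2 ratio of the 92 was 0.03, with 49 of them above 0. The gene that rose was Shpk, the kinase of sedoheptulose, a sugar that feeds the non-oxidative branch, with 2.62 with simvastatin and 0.80 in control in the authors' deposited table (their adjusted p = 0.042). The gene that fell as deposited, although its log2 ratio of -0.18 became 0.02 when each group was divided by its sum, was Txnl4a. Despite its thioredoxin-like fold its protein is a part of the spliceosome, and the gene had 7.95 with simvastatin and 9.01 in control in the authors' deposited table (their adjusted p = 0.043).

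Of the NRF2 regulators 8 of 11 were measured and none passed. Nfe2l2, which encodes NRF2 itself, had 30.3 with simvastatin and 31.5 in control in the authors' deposited table (their adjusted p = 0.323). Keap1 was among the 3 regulators that were not measured. Sqstm1, whose protein p62 binds KEAP1, had 202 with simvastatin and 180 in control over 4 transcripts, of which the authors called 2 higher. The other 2 had lower values without a call, among them the one of highest value (ENSMUST00000102774) with 94.6 with simvastatin and 120.2 in control in the authors' deposited table (their adjusted p = 0.758). Nfe2l1, for the related factor NRF1, had 96.1 with simvastatin and 49.9 in control over 5 transcripts, with the smallest adjusted p at 0.192 in the authors' deposited table. The authors called the transcript with that adjusted p (ENSMUST00000135836) higher and none of the others. Their call marked 2 of the 8 regulators as higher and 0 as lower, beside 8.58% and 7.52% of all genes. The group values of NRF2 RNA thus lay close together, while the summed values of its relative Nfe2l1 were further apart, with transcripts in both directions.

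Among 16 measured other NRF2 targets none passed, and the median log2 ratio was 0.08. The ferritin genes were close or lower, Ftl1 with 2893 with simvastatin and 2949 in control over 5 transcripts and Fth1 with 508 with simvastatin and 699 in control in the authors' deposited table (their adjusted p = 0.173). Genes that the authors called, named here after their values were seen, stood on both sides. Nqo1, a quinone reductase often used as a readout of NRF2, had 4.77 with simvastatin and 1.81 in control in the authors' deposited table (2.63-fold, adjusted p = 0.139). Slc7a11, the cystine importer that supplies cysteine for glutathione, had 21.3 with simvastatin and 6.40 in control in the authors' deposited table (3.33-fold, adjusted p = 0.11). Cbr3, a carbonyl reductase, was lower at 1.99 with simvastatin and 5.41 in control in the authors' deposited table (their adjusted p = 0.1). Hmox1, for haem oxygenase 1, also named after its values were seen but not called, had 47.4 with simvastatin and 39.3 in control in the authors' deposited table (their adjusted p = 0.636). The authors' call marked 2 of the 16 as higher and 1 as lower, beside 8.58% and 7.52% of all genes. Whether these shares differ was not tested.

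In the glutathione list 25 of 40 genes were measured and none passed (median log2 ratio 0.09). Of its members with the highest summed values, Gpx4, the lipid peroxide reductase, had 157 with simvastatin and 148 in control over 2 transcripts, and the transferase gene Gstp1 had 152 with simvastatin and 148 in control in the authors' deposited table (their adjusted p = 0.803). The authors' call marked 4 of the 25 as higher, beside 8.58% of all genes. Besides Slc7a11 these were Mgst1, Gstt3 and Hagh, named after their values were seen. Mgst1, a membrane-bound glutathione transferase, had 23.6 with simvastatin and 11.5 in control in the authors' deposited table (their adjusted p = 0.072). Gsr, which recharges glutathione with NADPH and was named in the same way, had 16.3 with simvastatin and 16.4 in control in the authors' deposited table (their adjusted p = 0.658).

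The thioredoxin, peroxiredoxin and methionine sulfoxide repair list had a median log2 ratio of -0.30 over 17 measured genes. Besides Txnl4a none passed. Txn1, for thioredoxin 1 and so the substrate of Txnrd1, had 33.8 with simvastatin and 194 in control in the authors' deposited table (their adjusted p = 0.169, called lower by the authors). Prdx2, a cytosolic peroxiredoxin, had 140 with simvastatin and 146 in control over 5 transcripts. In this list 12 of 17 genes (70.6%) had lower summed values with simvastatin, beside 48.3% of all genes, and 9 of 17 (52.9%) when each group was divided by its sum, beside 33.9% of all genes.

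Of the other pentose phosphate and PRPP enzymes, 12 of 15 were measured, with a median log2 ratio of -0.17, and Shpk alone passed. Tkt, transketolase, the partner of Taldo1, had 74.5 with simvastatin and 93.8 in control over 3 transcripts. Pgm2 had 46.7 with simvastatin and 44.3 in control in the authors' deposited table (their adjusted p = 0.748). The list's median became 0.03 when each group was divided by its sum. Of these 12 genes, 8 (66.7%) had lower summed values with simvastatin, beside 48.3% of all genes. When each group was divided by its sum, 5 (41.7%) had, beside 33.9% of all genes. G6pdx and Pgd had positive summed ratios under either scaling.

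The list for other NADPH supply, in which not every enzyme makes NADPH itself, had 14 of 17 genes measured. Its median log2 ratio was 0.16, and none passed. The mitochondrial enzyme genes Idh2 and Mthfd2 had 127 and 87.2 with simvastatin and 121 and 76.1 in control in the authors' deposited table, with adjusted p-values of 0.741 and 0.727. Idh1, the cytosolic NADP-dependent isocitrate dehydrogenase, was called higher by the authors and is named after its values were seen, with 55.6 with simvastatin and 32.4 in control in the authors' deposited table (1.72-fold, adjusted p = 0.095). Aldh1l1, a folate enzyme that makes NADPH, was also called higher and named in the same way, with 7.31 with simvastatin and 4.17 in control in the authors' deposited table (1.75-fold, adjusted p = 0.13). Mthfd1, of folate metabolism, was called lower and likewise named after its values were seen, at 15.4 with simvastatin and 24.8 in control in the authors' deposited table (their adjusted p = 0.076). For superoxide and peroxide removal, 5 of 6 genes were measured, none passed and the median was 0.03. Sod1, which converts superoxide to hydrogen peroxide, had 126 with simvastatin and 145 in control in the authors' deposited table (their adjusted p = 0.178), and Park7 had 32.4 with simvastatin and 37.5 in control over 4 transcripts.

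**Figure D5:**
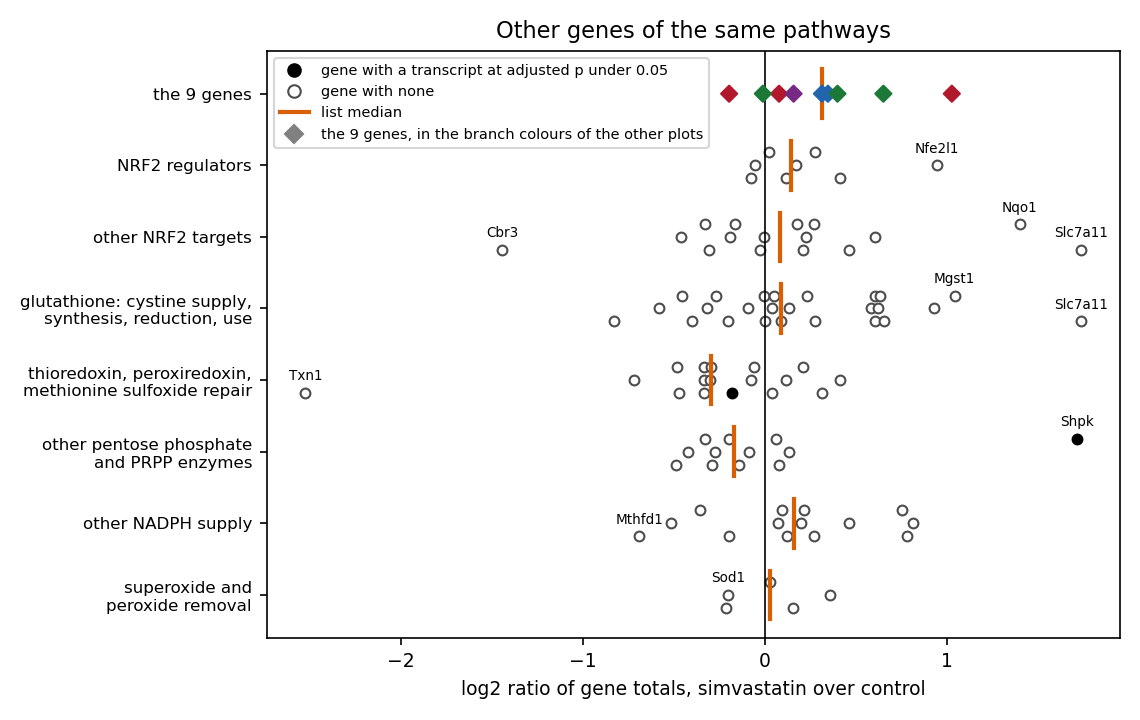
The log2 ratio of simvastatin over control of summed gene values for the 9 genes (diamonds) and for the measured genes of 7 lists of the same pathways (circles, filled where a transcript had an adjusted p under 0.05), with list medians as bars. The median of the 9 genes (0.31) lies above 0, that of the thioredoxin list (-0.30) below, and Slc7a11 and Txn1 are the widest points on either side.

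In the authors' deposited table of enrichment terms, members appeared in 10 of 148 terms, all of them under upregulated processes or pathways. The terms are described as an enrichment of called genes, and the members listed, Srxn1, G6pdx and Pgls, are those called higher. No member was called lower, so this placement repeats the calls above and adds no separate support. The term for the response to oxidative stress held 13 genes, Srxn1 and G6pdx among them, at a 3.47-fold enrichment and an adjusted p of 2.40E-02 in the authors' deposited table. Its other 11 genes were Abl1, Btg1, Idh1, Jak2, Nqo1, Oxr1, Pink1, Prnp, Selenok, Slc7a11 and mt-Co1. Of the 13, 4 had an adjusted p under 0.05 and 11 carried the authors' call as higher, while Jak2 and Oxr1 carried none. Thus the term rested mostly on calls between 0.05 and 0.2. G6pdx was also listed under cholesterol biosynthetic process, a term of 16 genes at a 14.7-fold enrichment in the authors' deposited table; the synthesis of cholesterol uses NADPH in its reductive steps.

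The authors' deposited table of protein links, which kept STRING scores from 0.7, held G6pdx and Pgls alone of the 9 genes. They were linked to each other at a score of 0.978, and G6pdx to Aldoc and Eno2 at 0.861 and 0.856, in a cluster of 4 genes that the authors named for the pentose phosphate pathway. Aldoc and Eno2 are glycolytic enzyme genes, an aldolase and an enolase, and were named after their values were seen. Their transcripts with the smallest adjusted p had 16.7 and 13.0 with simvastatin and 8.12 and 6.63 in control in the authors' deposited table, with adjusted p-values of 0.064 and 0.177. In that cluster G6pdx alone had a transcript at an adjusted p under 0.05. Srxn1, which the authors called, was not in the link table. Pgd was not in it either, but the links are described as those of called genes and Pgd was not called. Its absence therefore says nothing of its links.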

How the data were processed

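RNA was measured in 6 samples of B16.F10 cells, 3 given simvastatin and 3 untreated, grouped by their titles. The submitters' processing notes name HISAT2 2.0.5, StringTie and the build GRCm38 (mm10), and the labels' protocols name strand-specific libraries. How values were counted, filtered and tested is not stated. For each transcript the authors deposited 1 signal value per group, a signed fold score, a p-value and an adjusted p-value, both printed to 3 decimals, and a call. The deposited link scores are from STRING, per the file headers, and the enrichment terms from DAVID.

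No test was refitted, since no value per sample was used: the authors' adjusted p-value over all transcripts, under 0.05, was the threshold, in place of the planned test on counts. Group values were summed per gene and log2 ratios taken of simvastatin over control with no pseudocount and no filter (Python 3.11.15, pandas 2.3.3). Sums have no error of their own. Depth per sample is unknown. Coordinates and exons are from GENCODE M21 (GRCm38), and promoter windows from RefSeq (GRCm38.p6). The calculations were tested on simulated data. The members and lists were chosen with earlier results of these data known. Named were all members, Nfe2l2 and Keap1, and from each list the genes past the threshold, or the 2 of highest summed value where fewer than 2 passed; others are marked as named after their values were seen. Alternative thresholds, scalings, filters and ways of summing were tried. The authors' tables on aggressiveness and on human cells were not used here.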

Additional observations from a re-analysis of the deposited data

How the results depend on the processing

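The count of 2 higher transcripts became 4 at an adjusted p under 0.1, 5 under 0.2, 4 by the authors' call, 5 without adjustment and 4 when the adjustment was recomputed from the printed p-values. In the recomputation G6pdx-203 and Pgd-201 reached 0.0491, from p-values printed as 0.002. The 2 higher genes became 3 under 0.1, by the authors' call and by the recomputation, and 4 under 0.2 and without adjustment. The count of 0 lower transcripts became 1 under 0.2 and 2 without adjustment, and the 0 lower genes became 1 in each, namely Txnrd1. Shares of all transcripts and genes were not computed for an adjusted p under 0.1 or 0.2 or for the recomputation. The share of all genes without adjustment was not computed either. These counts therefore have no background beside them and do not show an excess among the members. Dividing each group by its sum moved the median log2 ratio of the other pentose phosphate and PRPP enzymes from -0.17 to 0.027, that of Txnrd1 from -0.20 to 3.1e-05 and that of Pgls from -0.01 to 0.19. These changes follow from the threshold or scaling used. Of the alternatives for single genes 52 of 54, and of those for medians 65 of 66, kept the sign with a linear simvastatin over control ratio within 1.5 times the one reported. Many of them could hardly do otherwise. Srxn1, Gclm and Pgd have 1 transcript each, so the ways of summing and the filter on group values left them unchanged. The scalings shift every gene alike by less than that limit. Within the same limit, Pgls went from -0.01 to -0.47 when only its transcript of highest value was used. With the motif TGACNNNGC, added after the matches were seen, 6 genes had a match in place of 7, and with TGANTCAGC 2. By window, TGACNNNGC was in 6 of the 11 windows of these genes and in 12.4% of all windows. The share of all genes was not computed for these 2 forms. Leaving out replicates, another normalization and a filter on low counts were not run, because they need values per sample. No paired analysis was possible because each transcript had 1 value per group. The depth behind each value is unknown.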

Other observations

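Txn1 was listed under 9 upregulated and 2 downregulated terms in the authors' deposited table of enrichment terms, although its 1 transcript had 33.8 with simvastatin and 194 in control in the authors' deposited table of transcripts. The reason was not tested.

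Gss, for glutathione synthetase, which takes the step after Gclc and Gclm and was named after its values were seen, had 12.5 with simvastatin and 7.97 in control in the authors' deposited table (their adjusted p = 0.596). Gpx1, for a peroxidase that spends glutathione, named in the same way, had 22.4 with simvastatin and 30.7 in control in the authors' deposited table (their adjusted p of 0.206). Neither passed, and the values lay on opposite sides of control.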
